A study of Mus musculus with 6 samples.

Results

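The genes described here are 9 marker genes of the endocardium, the endothelial lining of the heart: Nfatc1, Tbx20, Hand2, Nrg1, Edn1, Npr3, Hapln1, Cdh11 and Cgnl1. They were chosen by symbol, and all 9 were found among the 23420 genes of the deposited count table. RNA was sequenced from endothelial cells sorted out of whole mouse embryos at embryonic day 12.5. Every embryo carried Csf1r-iCre, a Cre recombinase under the promoter of the myeloid gene Csf1r, and RosatdTomato, a reporter at the Rosa26 locus that makes a red protein once Cre has acted, so both fractions share the same alleles. Cells with PECAM1 on their surface, and without CD45, CD11b or KIT, were separated into a tdTom+ fraction, with 3 libraries, and a tdTom- fraction, with 3 libraries. The label marks any cell that expressed the Cre or descends from one that did, whatever vessel it lay in, and a cell in which the reporter failed to recombine stays in the tdTom- fraction. The labels speak of 3 embryos without saying which embryo gave which library. The comparison asks whether endothelial cells with a Csf1r-iCre history carry as much of these transcripts as the other endothelial cells of the embryo.

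Endocardium covers the inner wall of the heart tube and signals to the muscle beneath it. In the cushions it forms valves, where NFATC1 acts in the cells that stay endothelial. Over the chamber wall, endocardial neuregulin 1 acts on ERBB receptors of the muscle to drive trabeculation, and a hyaluronan-rich cardiac jelly separates the layers. Many of its markers are active elsewhere too. Hand2 and Cdh11 are also mesenchymal genes, Nrg1 is a neural gene, Hapln1 is a cartilage gene, and Edn1 is made by endothelium of many organs.

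Total counts per library ran from 10675472 to 11501313 in tdTom+ and from 8919887 to 11767956 in tdTom- cells, and 13142 genes were abundant enough to test. Levels are given as CPM, counts scaled to the size of each library, and differences as log2 fold changes of tdTom+ over tdTom- from edgeR's quasi-likelihood test, called at a Benjamini-Hochberg adjusted p under 0.05 over all tested genes. The sorted cells had the endothelial markers in both fractions, with a summed level of 10 core genes of 7766 to 8182 CPM in tdTom+ and 7695 to 7799 CPM in tdTom- libraries. Both libraries numbered 3 carried Xist, the transcript of the inactive X chromosome, with 1224 counts in tdTom+ and 571 in tdTom-, where the other tdTom+ libraries had at most 8 and the other tdTom- libraries at most 4. Ddx3y, a gene of the Y chromosome, had 1521, 1334 and 12 counts in tdTom+ libraries 1 to 3 and 1204, 1537 and 2 in tdTom- libraries 1 to 3. By these genes, libraries 1 and 2 of each fraction looked male and library 3 female.

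Cdh11 was the 1 marker that fell in tdTom+ cells, to 0.315 of its tdTom- level. Tbx20 and Hand2 differed by more on average without passing, while Nfatc1, Cgnl1 and Edn1 were close to equal. All 9 passed the low-count filter. Hand2 and Nrg1 reached its level of 0.922 CPM in 2 of 3 tdTom+ libraries, and every other member reached it in all 3 libraries of each fraction. Of all tested genes 0.814% were called lower, 0.769% higher and 1.58% in either direction, and 1 of the 9 markers was called lower and 0 higher. An unadjusted p under 0.05 was reached by 4 markers, Cdh11, Tbx20, Hand2 and Hapln1, all with lower means in tdTom+ cells, where 10.7% of all tested genes reached it in either direction. DESeq2 called 3 markers lower, Cdh11, Tbx20 and Hand2, against 2.03% of the genes it tested, and 0 higher, against 1.65%. Limma-voom called 1 marker lower, Cdh11, against 0.609% of all genes, and 0 higher, against 0.525%. Every tdTom+ library lay below every tdTom- library in 4 of the 9, Cdh11, Tbx20, Hand2 and Cgnl1, against 9.35% of all tested genes, and the reverse held in 0, against 7.88%. The median log2 fold change was -0.55 over the 9 markers and -0.00026 over all tested genes. Summed over the 9, the level was 610.6, 587 and 485 CPM in tdTom+ libraries 1 to 3 against 830.0, 789.9 and 607 CPM in tdTom- libraries 1 to 3, so the sums overlapped narrowly. Bulk RNA cannot tell fewer endocardial cells, or fewer other cells that make these transcripts, from less of a transcript in each cell.

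**Figure D1:**
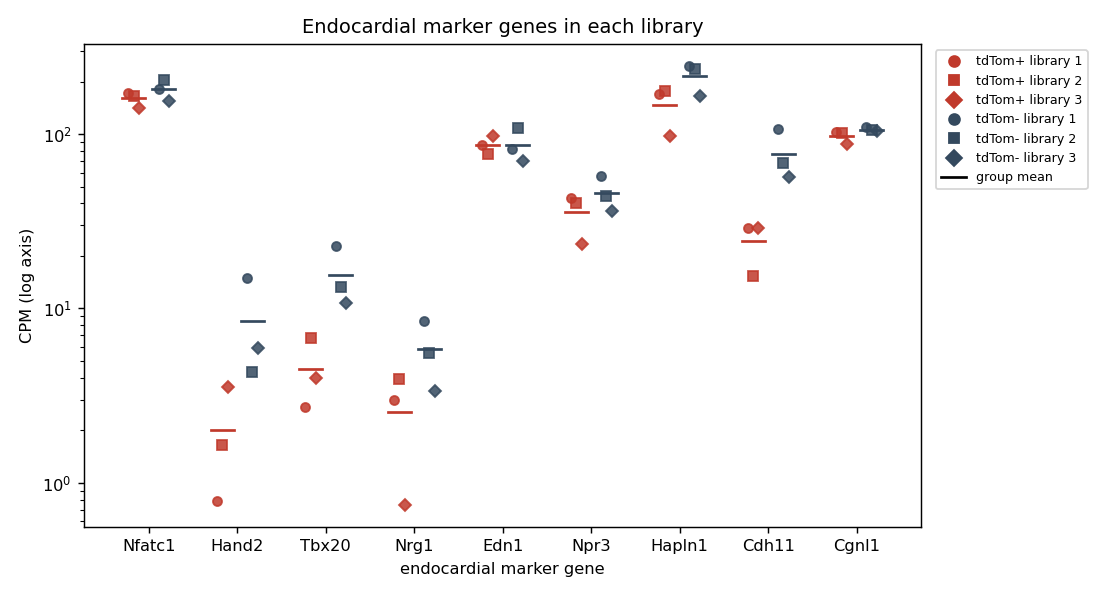
Level of each endocardial marker gene in every library, in CPM on a log axis, with tdTom+ libraries in red on the left and tdTom- libraries in dark blue on the right of each pair. Marker shapes give the library number and bars the group means. The fractions separate in Hand2, Tbx20 and Cdh11, and narrowly in Cgnl1, while Nfatc1 and Edn1 overlap.

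The sequence upstream of the start site is shown for 3 markers that differ in behaviour, Hand2 and Tbx20, whose fractions did not overlap, and Edn1, whose fractions had the same mean. RefSeq's promoter table (GRCm38.p6) held 6 of the 9 markers. The 250 bases before each start were searched on both strands for the cores read by 4 families of cardiac transcription factors. GATAA, read by GATA factors, was found in 22.6% of 32851 promoters of the same length. Capitals mark GATAA or its reverse complement TTATC.
Hand2, chr8:57320733-57320982, plus strand: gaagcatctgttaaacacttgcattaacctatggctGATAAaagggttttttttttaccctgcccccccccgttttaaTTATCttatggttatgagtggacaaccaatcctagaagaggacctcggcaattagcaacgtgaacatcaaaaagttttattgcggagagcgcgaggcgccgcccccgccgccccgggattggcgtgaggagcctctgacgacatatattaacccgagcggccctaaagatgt
Tbx20, chr9:24774304-24774553, minus strand: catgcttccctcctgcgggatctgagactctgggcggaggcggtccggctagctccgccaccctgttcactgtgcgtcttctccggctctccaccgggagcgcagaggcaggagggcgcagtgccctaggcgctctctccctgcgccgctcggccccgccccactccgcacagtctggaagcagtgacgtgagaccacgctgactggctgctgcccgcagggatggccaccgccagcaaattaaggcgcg
Edn1, chr13:42301226-42301475, plus strand: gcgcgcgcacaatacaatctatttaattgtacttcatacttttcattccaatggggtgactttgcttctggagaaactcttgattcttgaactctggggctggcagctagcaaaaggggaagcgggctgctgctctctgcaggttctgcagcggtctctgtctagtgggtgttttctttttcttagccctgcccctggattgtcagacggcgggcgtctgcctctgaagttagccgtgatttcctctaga
Hand2 held 2 matches, which begin at positions -214 and -172 from the start, and the other 5 promoters held 0. GGAAA, the core read by NFAT proteins, was found once each in Edn1, Cgnl1 and Hapln1, and in 55.6% of all promoters. CANNTG, the E-box of basic helix-loop-helix factors such as HAND2, occurred in Hand2, Npr3 and Cgnl1 and in 66.2% of all promoters. The T-box core AGGTGT occurred in none of the 6 and in 3887 of the 32851 promoters. These matches describe letters in a window and say nothing of binding.

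Among the 3 transcription factor genes, the cardiac regulators Hand2 and Tbx20 were several times less abundant in tdTom+ libraries on average, and Nfatc1 was nearly level. Nfatc1 (chromosome 18, 80606205 to 80713071, GRCm38, minus strand) encodes a factor that calcineurin sends to the nucleus. It stood at 173, 165 and 142 CPM in tdTom+ libraries 1 to 3, and at 182, 204 and 155 CPM in tdTom- libraries 1 to 3. The fractions overlapped, with library 3 lowest in each. Means were 160.1 ± 16.4 CPM in tdTom+ cells against 181 ± 24.5 CPM in tdTom- cells (SD, n = 3 each), and the log2 fold change, -0.17 ± 0.12 (SE), was not called by edgeR (adjusted p = 0.677). Its 95% interval, -0.43 to 0.08, covers 0.

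Tbx20 (chromosome 9, 24718138 to 24774303, minus strand) encodes a T-box factor needed in heart muscle and endocardium. Its counts were 31, 74 and 43 in tdTom+ libraries, or 2.72, 6.77 and 4.01 CPM, and 235, 156 and 96 in tdTom- libraries, or 22.8, 13.2 and 10.7 CPM. The highest tdTom+ library was below the lowest tdTom- library, and tdTom- library 1 stood well above the others of its fraction. The log2 fold change, -1.79 ± 0.41 (SE), was not called by edgeR (adjusted p = 0.0653), with a 95% interval of -2.70 to -0.88. It passed without the low-count filter (edgeR adjusted p = 0.031), without tdTom+ replicate 2 (0.0395) and with DESeq2 (adjusted p = 0.00294). It did not pass with any other single library left out, and its log2 fold change was -1.41 without tdTom- replicate 1 (edgeR adjusted p = 0.373).

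Hand2 (chromosome 8, 57320983 to 57324633, plus strand) encodes a basic helix-loop-helix factor of heart, limb and branchial arches. It had 9, 18 and 38 counts in tdTom+ against 155, 51 and 53 in tdTom- libraries, or 0.788, 1.65 and 3.55 CPM in tdTom+ against 15.0, 4.31 and 5.92 CPM in tdTom-. The fractions did not overlap, though tdTom+ library 3 came close to tdTom- library 2. With a log2 fold change of -2.07 ± 0.65 (SE) and a 95% interval of -3.51 to -0.64, Hand2 had the largest estimate and the widest error of the 9, and did not pass (edgeR adjusted p = 0.204). It passed with DESeq2 (adjusted p = 0.0457). The log2 fold change was -1.35 without tdTom- replicate 1 and -2.78 without tdTom+ replicate 3 (edgeR adjusted p = 0.828 and 0.0807). The authors' deposited table, in which fold changes run tdTom- over tdTom+ and are turned round here, lists log2 fold changes of -1.67 for Cdh11, -1.79 for Tbx20 and -2.08 for Hand2, with adjusted p = 9.41e-08, 0.0027 and 0.0427. The authors' deposited table thus has 3 markers lower and 0 higher, where 1.92% of its genes with an adjusted p are lower and 1.39% higher.

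Of the secreted ligands, Nrg1 was rare in both fractions and Edn1 was abundant in both. Nrg1 (chromosome 8, 31814551 to 32884029, minus strand), the ERBB ligand, had 34, 43 and 8 counts in tdTom+ against 88, 66 and 30 in tdTom- libraries. As levels these were 2.98, 3.93 and 0.747 CPM in tdTom+ against 8.52, 5.58 and 3.35 CPM in tdTom-. The fractions overlapped, since tdTom+ library 2 exceeded tdTom- library 3, and library 3 was lowest in each. Its log2 fold change, -1.19 ± 0.64 (SE), was not called by edgeR (adjusted p = 0.574), and the 95% interval of -2.60 to 0.22 leaves its size undetermined at these counts.

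Edn1 (chromosome 13, 42301476 to 42307990, plus strand) encodes the vasoconstrictor endothelin 1. Levels were 87.2, 76.5 and 97.3 CPM in tdTom+ and 82.0, 109 and 70.4 CPM in tdTom- libraries, so that the highest and the lowest library were both tdTom-. Means were 87.0 ± 10.4 CPM in tdTom+ cells against 87.1 ± 19.6 CPM in tdTom- cells (SD, n = 3 each), and the log2 fold change was -0.00 ± 0.16 (adjusted p = 0.999 by edgeR, ± SE), with a 95% interval of -0.36 to 0.36. Unlike most markers, Edn1 was highest in library 3 among the tdTom+ libraries.

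Npr3 (chromosome 15, 11839896 to 11907287, minus strand) encodes the clearance receptor that removes natriuretic peptides. It stood at 42.9, 40.2 and 23.5 CPM in tdTom+ and at 57.1, 44.0 and 36.0 CPM in tdTom- libraries. Fractions overlapped, and library 3 was lowest in both. The log2 fold change, -0.36 ± 0.24 (SE), was not called by edgeR (adjusted p = 0.682), with a 95% interval of -0.90 to 0.17.

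The matrix and junction genes ranged from the called Cdh11 to the nearly level Cgnl1. Cdh11 (chromosome 8, 102632095 to 102785642, minus strand) encodes cadherin 11, a type II cadherin of mesenchyme and of cushion cells. It had 330, 167 and 308 counts in tdTom+ against 1103, 810 and 506 in tdTom- libraries, or 28.9, 15.3 and 28.8 CPM in tdTom+ against 106.8, 68.5 and 56.6 CPM in tdTom-. The fractions did not overlap, and tdTom+ library 2 and tdTom- library 1 lay at the ends. Means were 24.3 ± 7.83 CPM in tdTom+ cells against 77.3 ± 26.3 CPM in tdTom- cells (SD, n = 3 each), a level 3.18 times as high in tdTom- cells. The log2 fold change was -1.67 ± 0.28 (adjusted p = 0.0163 by edgeR, ± SE), with a 95% interval of -2.29 to -1.05. Its p ranked 85 among the 13142 genes tested. Leaving out 1 library ended the call in 3 of 6 cases, tdTom+ replicate 1 (edgeR adjusted p = 0.0517), tdTom- replicate 1 (0.0722) and tdTom- replicate 2 (0.0532), with log2 fold changes of -1.81, -1.36 and -1.75.

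Hapln1 (chromosome 13, 89539796 to 89611652, plus strand) encodes a link protein that ties hyaluronan to proteoglycans. It had the highest mean CPM of the 9 in tdTom- cells, at 169, 177 and 96.9 CPM in tdTom+ and 246, 236 and 165 CPM in tdTom- libraries. Library 3 was far below libraries 1 and 2 in both fractions, and the fractions overlapped. Between libraries of the same number, tdTom+ was lower each time, with log2 ratios of -0.54, -0.42 and -0.77 for numbers 1 to 3. The log2 fold change, -0.55 ± 0.21 (SE), was not called by edgeR (adjusted p = 0.358), with a 95% interval of -1.02 to -0.08. With library number as a block, a pairing the labels do not state, edgeR called it lower (-0.57, adjusted p = 0.00906).

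Cgnl1 (chromosome 9, 71626509 to 71771602, minus strand) encodes paracingulin, an adaptor of tight and adherens junctions. Its levels were 103, 101 and 88.3 CPM in tdTom+ and 109, 105 and 104 CPM in tdTom- libraries. The fractions just missed overlapping, and the tdTom- libraries agreed closely, with a coefficient of variation of 2.68%. The log2 fold change, -0.13 ± 0.10 (SE), was not called by edgeR (adjusted p = 0.759), and its 95% interval was -0.35 to 0.10.

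**Figure D2:**
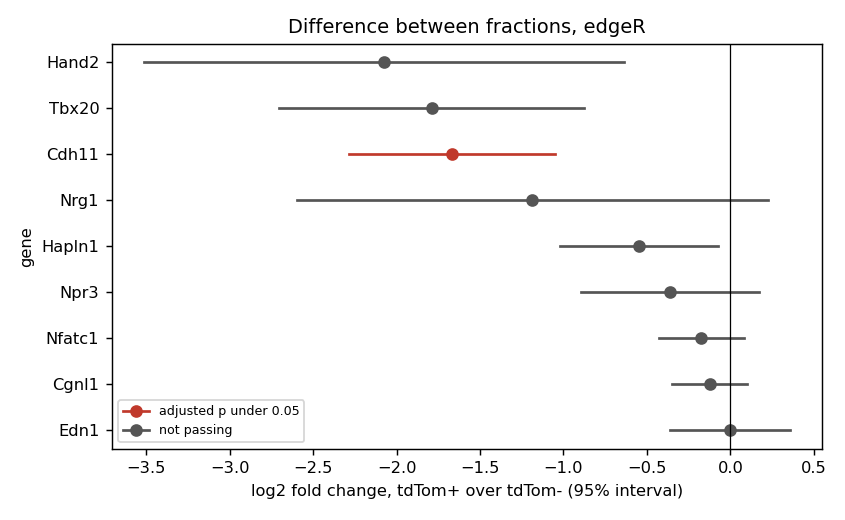
Log2 fold change of tdTom+ over tdTom- for each marker, as a point with its 95% interval from edgeR, sorted from the lowest. Cdh11, in red, is the marker that passed, at -1.67, while Hand2 and Tbx20 have lower estimates with wider intervals and Edn1 lies at 0.

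Per kilobase of exon (union of all GENCODE vM21 exons of a gene), the markers spanned a wide range of levels. In tdTom+ cells the order from the highest was Edn1 at 40.7, Hapln1 at 25.0, Nfatc1 at 21.4, Cgnl1 at 12.4, Npr3 at 3.79, Cdh11 at 2.73, Hand2 at 0.848, Tbx20 at 0.375 and Nrg1 at 0.247 CPM per kilobase. Neighbours whose library ranges overlapped there were Hapln1 and Nfatc1, Npr3 and Cdh11, Hand2 and Tbx20, and Tbx20 and Nrg1. In tdTom- cells the order was Edn1 at 40.7, Hapln1 at 36.6, Nfatc1 at 24.2, Cgnl1 at 13.5, Cdh11 at 8.68, Npr3 at 4.87, Hand2 at 3.58, Tbx20 at 1.30 and Nrg1 at 0.562 CPM per kilobase. Edn1 and Hapln1, Npr3 and Hand2, and Hand2 and Tbx20 overlapped in range there. Cdh11 and Npr3 thus changed places between the fractions. A gene with many isoforms, such as Nrg1, has a long exon union, so its level per kilobase may be understated.

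Nfatc1, Cgnl1 and Edn1 varied less between libraries than the rarer Hand2, Nrg1 and Tbx20. Coefficients of variation among tdTom+ libraries were 10.2% for Nfatc1, 8.05% for Cgnl1, 11.9% for Edn1, 70.8% for Hand2, 64.0% for Nrg1 and 46.0% for Tbx20. Among tdTom- libraries they were 13.6% for Nfatc1, 2.68% for Cgnl1, 22.6% for Edn1, 68.6% for Hand2, 44.6% for Nrg1 and 40.9% for Tbx20. Hapln1 and Npr3 lay between, at 29.8% for Hapln1 and 29.6% for Npr3 among tdTom+ libraries. Library 3 was the lowest of tdTom+ in 5 markers and the lowest of tdTom- in 8. It was also the library that looked female by Xist and Ddx3y in each fraction, and a link of the levels with sex was not tested. Within tdTom- cells, library 1 was the highest in 7 markers and library 2 in the other 2, Nfatc1 and Edn1.

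Hand2 shares 461 exon bases with Hand2os1 on the opposite strand, Nrg1 shares 482 with Gm26578, Npr3 shares 321 with Gm5144 and Edn1 shares 35 with Gm47118, and the library kit does not mark strand. Reads from these stretches cannot be told apart. The deposited count table held none of the partner genes under these symbols, so they were not analysed here. No other marker shared exon bases with a gene on the opposite strand.

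The profile of Cdh11 over the 6 libraries was most like those of Shroom3, an actin regulator of epithelial cells, Arnt2, a transcription factor, and Col9a2, a cartilage collagen. Likeness was the root mean square difference between centred log2 CPM values, which was 0.185, 0.191 and 0.202 among 11882 genes compared, where the profile of Cdh11 itself departed from its mean by 0.928. The nearest of the other markers was Tbx20, at 0.657. The log2 fold changes were -1.44 for Shroom3, -1.72 for Arnt2 and -1.65 for Col9a2, none of which passed (edgeR adjusted p = 0.125, 0.291 and 0.0613). Since likeness was taken over both fractions, genes chosen by it have fold changes near that of Cdh11 by construction.

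Marker lists of other tissues, some of which also express Hand2, Cdh11, Hapln1 or Nrg1, had median log2 fold changes below 0. The 10 cartilage genes summed to 102, 29.8 and 47.1 CPM in tdTom+ and to 249, 148 and 121 CPM in tdTom- libraries, with no overlap and with library 1 highest in each fraction. All 8 tested members had a log2 fold change below 0, with a median of -1.71, and Sox9, the cartilage and cushion regulator, had 9.22 ± 5.94 in tdTom+ against 25.5 ± 4.51 CPM in tdTom- cells (SD, n = 3 each). Lect1, another of the tested members, had 31, 0 and 9 counts in tdTom+ against 97, 52 and 29 in tdTom- libraries. It passed the low-count filter through the tdTom- libraries. The 19 mesenchyme and mural genes summed to 328, 223 and 717 CPM in tdTom+ and to 1212, 541 and 708 CPM in tdTom- libraries. These ranges overlapped, and tdTom- library 1, the highest, was also the highest tdTom- library for 7 of the 9 markers, all but Nfatc1 and Edn1. The tdTom+ libraries differed in this, since library 3 had their highest mesenchyme sum but was the lowest tdTom+ library in 5 of the 9 markers. Pdgfra, a mesenchymal growth factor receptor gene, had 74, 59 and 274 counts in tdTom+ against 606, 203 and 173 in tdTom- libraries. No mesenchyme gene was at 0 in all libraries. The share of these cells in the differences of the markers was not tested.

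Heart muscle genes were low in both fractions. The 20 cardiomyocyte genes summed to 35.0, 49.5 and 38.6 CPM in tdTom+ and to 75.4, 72.7 and 51.9 CPM in tdTom- libraries, with no overlap. Nkx2-5, a defining factor of heart muscle, had at most 2 counts in a tdTom+ and at most 4 in a tdTom- library, Bmp10 was at 0 in all 6, and 7 of the 20 were abundant enough to test. Tnnt2, cardiac troponin T, had 41, 44 and 20 counts in tdTom+ against 80, 93 and 92 in tdTom- libraries. Of the 7 tested, 5 had a log2 fold change below 0, and the myosin genes Myh6 and Myl7 lay above it, at 0.86 ± 0.66 and 0.42 ± 0.45 (adjusted p = 0.738 and 0.828 by edgeR, ± SE). The 9 epicardial genes measured summed to 34.0, 14.7 and 14.3 CPM in tdTom+ and to 24.9, 19.1 and 17.7 CPM in tdTom- libraries, which overlapped. The 12 neural and neural crest genes summed to 63.0, 79.4 and 62.0 CPM in tdTom+ and to 110.5, 104 and 92.2 CPM in tdTom- libraries, with no overlap. No gene of the cartilage, mesenchyme, cardiomyocyte, epicardial or neural lists passed edgeR's test in either direction. An unadjusted p under 0.05 was reached by 4 of 8, 2 of 17, 3 of 7, 0 of 7 and 3 of 10 tested genes, all lower in tdTom+ cells. Lect1, Twist2 and Dcx, which are counted here, did not reach the filter level of 0.922 CPM in every tdTom+ library. They passed the filter through the tdTom- libraries, so their direction is partly set by the filter. Over all tested genes the share was 10.7% in either direction. DESeq2 called 3 cartilage genes, 1 mesenchyme gene, 1 cardiomyocyte gene, no epicardial gene and 2 neural genes lower, and limma-voom none. Over all the genes they tested, DESeq2 called 2.03% lower and limma-voom 0.609%. Medians of the log2 fold change were -0.83 for mesenchyme, -0.38 for heart muscle, -0.24 for epicardium and -0.53 for the neural list.

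**Figure D3:**
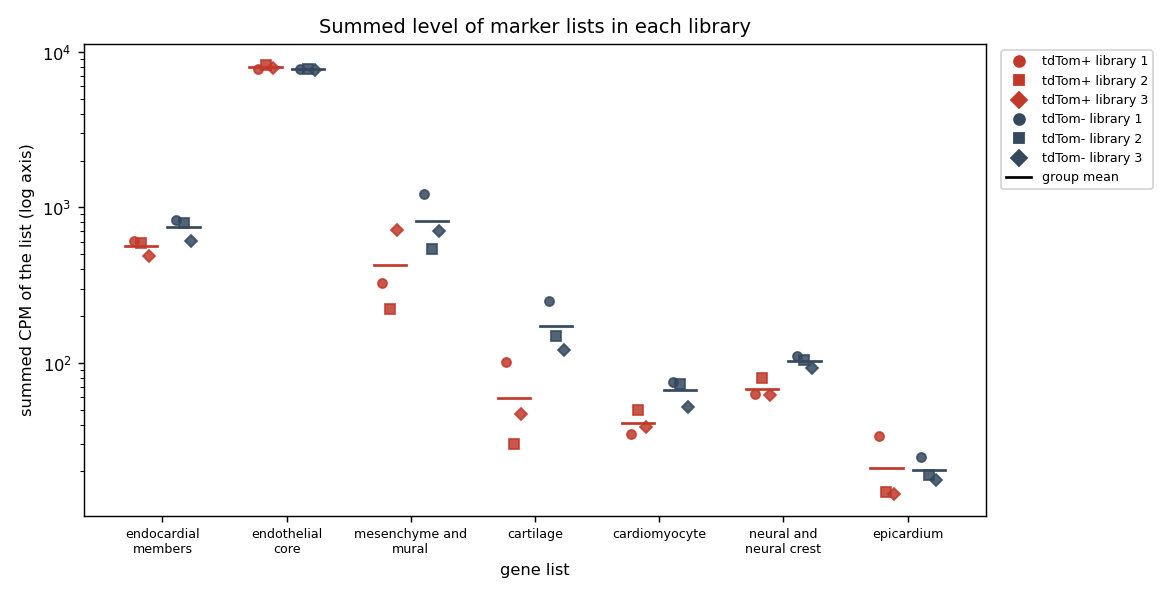
Summed level of each marker list in every library, in CPM on a log axis, with tdTom+ libraries in red on the left and tdTom- libraries in dark blue on the right. Endothelial core genes sit between 7695 and 8182 CPM in all 6 libraries, while cartilage, cardiomyocyte and neural lists are lower in every tdTom+ library and mesenchyme is highest in tdTom- library 1.

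In the cardiac transcription factor list, 1 of 16 tested genes fell and 0 rose, against 0.814% and 0.769% of all tested genes. The median log2 fold change was -0.73. The gene that fell was Gata5, an endocardial GATA factor, at 1.31, 1.28 and 2.80 CPM in tdTom+ against 14.8, 10.6 and 7.49 CPM in tdTom- libraries (log2 fold change -2.60 ± 0.47 SE, edgeR adjusted p = 0.0223). Leaving out any library but tdTom+ replicate 3 ended its call, at adjusted p values of 0.0525 to 0.171, and so did limma-voom at 0.0637. Its relatives did not pass, with estimates of opposite sign, Gata6 with a log2 fold change of -0.93 ± 0.22 and Gata4 with 0.67 ± 0.20 (adjusted p = 0.0699 and 0.174 by edgeR, ± SE). Hey2, a Notch target of heart muscle and endothelium, had 3.37 ± 3.10 in tdTom+ against 16.9 ± 3.64 CPM in tdTom- cells (SD, n = 3 each, edgeR adjusted p = 0.0653). An unadjusted p under 0.05 was reached by 9 lower genes and 1 higher gene, against 10.7% of all tested genes in either direction. DESeq2 called 6 lower, Gata6 among them, and 1 higher, Gata4, against 2.03% and 1.65% of the genes it tested. The markers Hand2 and Tbx20, already counted above, are among these 9 and these 6 lower genes. Limma-voom called 1 lower, Hey2, against 0.609% of all tested genes.

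Of 13 calcineurin and NFAT genes, 0 passed edgeR's test, DESeq2 or limma-voom, and the median log2 fold change was -0.13. At an unadjusted p under 0.05, 1 was lower and 1 higher, against 10.7% of all tested genes in either direction. The higher of these was Rcan3, a calcineurin regulator gene, with 68.1 ± 8.43 in tdTom+ against 52.3 ± 2.54 CPM in tdTom- cells (SD, n = 3 each, edgeR adjusted p = 0.275) and no overlap. Rcan1, a calcineurin regulator and NFAT target, had 130 ± 4.94 in tdTom+ against 142 ± 5.27 CPM in tdTom- cells (SD, n = 3 each), a log2 fold change of -0.13 ± 0.09 (adjusted p = 0.679 by edgeR, ± SE). Nfatc4 was at 6.75 ± 3.04 in tdTom+ against 13.7 ± 4.95 CPM in tdTom- cells (SD, n = 3 each, edgeR adjusted p = 0.357).

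The receptors for the ligands were measured in the same cells. Of the 6 tested neuregulin, EGF-family and ERBB genes, 0 passed edgeR, DESeq2 or limma-voom, and 2 were lower at an unadjusted p under 0.05, Hbegf and Erbb2. Among all tested genes 10.7% reached that p in either direction. Erbb2, the co-receptor, stood at 53.8 ± 11.7 in tdTom+ against 68.9 ± 4.37 CPM in tdTom- cells (SD, n = 3 each, edgeR adjusted p = 0.457). Erbb4, the muscle receptor for neuregulin, had at most 6 counts in any library and was not tested. Hbegf, a further ERBB ligand gene, had 58.9 ± 2.75 in tdTom+ against 72.6 ± 4.35 CPM in tdTom- cells (SD, n = 3 each, edgeR adjusted p = 0.348).

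None of the 6 tested endothelin genes passed edgeR, DESeq2, limma-voom or an unadjusted p under 0.05. Ednrb, the receptor of endothelium, was at 178 ± 33.2 in tdTom+ against 173 ± 27.0 CPM in tdTom- cells, and Ece1, which cuts the endothelin precursor, at 518 ± 39.6 in tdTom+ against 566 ± 52.1 CPM in tdTom- cells (SD, n = 3 each). Ednra, the receptor of mesenchyme and muscle, had 7, 66 and 106 counts in tdTom+ against 173, 86 and 141 in tdTom- libraries, which overlapped.

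Among natriuretic peptide genes the signalling receptor Npr1 rose while the clearance receptor Npr3 did not pass. Npr1, which makes cyclic GMP, had 139, 119 and 151 CPM in tdTom+ and 88.8, 65.4 and 87.1 CPM in tdTom- libraries, with no overlap (log2 fold change 0.76 ± 0.14 SE, edgeR adjusted p = 0.0246). It was the 1 of 5 tested genes that rose with edgeR, against 0.769% of all tested genes. In this list 0 fell, and DESeq2 and limma-voom gave the same counts. Leaving out tdTom+ replicate 1 or 3, or any 1 of the tdTom- replicates, ended the call at adjusted p values of 0.061 to 0.0899. The difference between the changes of Npr1 and Npr3 was not tested.

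Of 11 tested hyaluronan, link protein and lectican genes, 0 passed edgeR, DESeq2 or limma-voom, and 2 were lower at an unadjusted p under 0.05, Hapln1 and Has2. Among all tested genes 10.7% reached it in either direction. Has2, the hyaluronan synthase of the cushions, had 16, 50 and 5 counts in tdTom+ against 112, 134 and 41 in tdTom- libraries. In tdTom+ library 3 it had 0.467 CPM, under the filter level of 0.922 CPM. Its libraries numbered 3 were lowest in both fractions, as for Hapln1, and tdTom+ library 2 exceeded tdTom- library 3 in counts though not in CPM, at 4.57 against 4.58 CPM. Vcan, the versican of cardiac jelly, had 8.31 ± 6.44 in tdTom+ against 18.0 ± 4.11 CPM in tdTom- cells (SD, n = 3 each, edgeR adjusted p = 0.55).

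Of 12 tested cadherin and catenin genes 2 fell and 0 rose, Cdh11 and Cdh2, also by DESeq2 and limma-voom. With edgeR 0.814% of all tested genes were called lower and 0.769% higher. Cdh2, N-cadherin, had 55.5, 64.9 and 59.9 CPM in tdTom+ and 117, 102 and 98.3 CPM in tdTom- libraries, a log2 fold change of -0.82 ± 0.12 (adjusted p = 0.00741 by edgeR, ± SE), a call lost on leaving out tdTom- replicate 1 (adjusted p = 0.0605). Cdh5, the endothelial cadherin, had 554 ± 16.2 in tdTom+ against 494 ± 52.4 CPM in tdTom- cells (SD, n = 3 each, edgeR adjusted p = 0.534). Around Cgnl1, 0 of 6 tested genes passed edgeR, DESeq2 or limma-voom. An unadjusted p under 0.05 was reached by 1, against 10.7% of all tested genes. Cgn, the paralogue of Cgnl1, had at most 20 counts in a library and was not tested.

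The cushion and valve list held calls in both directions, with 3 of 21 tested genes lower, 2 higher and a median log2 fold change of -0.15. Shares over all tested genes were 0.814% lower and 0.769% higher. Bmp2, the growth factor that starts cushion formation from the muscle, rose to 116, 98.2 and 83.2 CPM in tdTom+, against 47.0, 37.6 and 33.6 CPM in tdTom- libraries (log2 fold change 1.33 ± 0.17 SE, edgeR adjusted p = 0.00317). Tgfbr3, a co-receptor of cushion endothelium, had 101 ± 20.2 in tdTom+ against 59.3 ± 7.67 CPM in tdTom- cells (SD, n = 3 each, edgeR adjusted p = 0.0457). The Bmp2 call held with any 1 library left out, and that of Tgfbr3 ended without any library but tdTom+ replicate 2 (adjusted p from 0.0833 to 0.222). Wnt4 and Wnt9b, Wnt ligand genes of valve endocardium and other tissues, and Jag1, a Notch ligand gene, were those that fell. Wnt4 had 1.90 ± 1.93 in tdTom+ against 19.8 ± 6.17 CPM in tdTom- cells, Wnt9b 1.41 ± 1.09 in tdTom+ against 14.3 ± 10.03 in tdTom- cells and Jag1 34.9 ± 2.88 in tdTom+ against 71.0 ± 5.37 in tdTom- cells (SD, n = 3 each). In tdTom+ libraries 1 to 3, Wnt4 had only 47, 10 and 7 counts and Wnt9b 28, 3 and 16. Neither Wnt gene reached the filter level of 0.922 CPM in every tdTom+ library, so both passed the filter through the tdTom- libraries. In the order Wnt4, Wnt9b and Jag1 they had log2 fold changes of -3.37, -3.33 and -1.03 (edgeR adjusted p = 0.0192, 0.0403 and 0.00435). The Wnt4 call ended without any 1 tdTom- replicate (adjusted p from 0.0705 to 0.11), the Wnt9b call without any 1 of the 6 libraries (0.0598 to 0.287), and the Jag1 call held with any 1 library left out. Limma-voom did not call Tgfbr3 (adjusted p = 0.0657) or Wnt9b (0.165). Notch1 and the flow-responsive Klf2, both active in endocardium, stood at 166 ± 10.1 and 284 ± 26.2 CPM in tdTom+ cells against 153 ± 10.8 and 309.9 ± 24.8 CPM in tdTom- cells (SD, n = 3 each), and did not pass.

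Of 11 other tested genes noted in endocardium, 1 fell, 0 rose and the median log2 fold change was -0.21. Shares over all tested genes were 0.814% lower and 0.769% higher. Fbln2, a matrix glycoprotein gene of cushions and vessel walls, had 66.3, 36.5 and 26.5 CPM in tdTom+ and 215, 179 and 124 CPM in tdTom- libraries, with a wide gap between the fractions. Its log2 fold change was -2.003 ± 0.335 (adjusted p = 0.0285 by edgeR, ± SE), a call lost on leaving out tdTom+ replicate 2, at an adjusted p of 0.171, or tdTom- replicate 2, at 0.109, and on dropping the low-count filter (0.162). Slc9a3r2, a scaffold protein gene, and Gpc1, a glypican gene, had log2 fold changes of -0.30 ± 0.07 and -1.07 ± 0.32 (adjusted p = 0.0653 and 0.168 by edgeR, ± SE), and DESeq2 called Slc9a3r2 lower. Smoc1, a secreted calcium-binding protein gene, and Tmem100, an endothelial membrane protein gene, had log2 fold changes of -1.17 ± 0.43 and -0.91 ± 0.29 (adjusted p = 0.32 and 0.221 by edgeR, ± SE). These 5 genes were lower at an unadjusted p under 0.05 and 1, Vwf, was higher, against 10.7% of all tested genes in either direction. Vwf had 247 ± 38.2 in tdTom+ against 197 ± 27.1 CPM in tdTom- cells (SD, n = 3 each, edgeR adjusted p = 0.358). Of the 11 genes, 8 had a log2 fold change below 0.

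**Figure D4:**
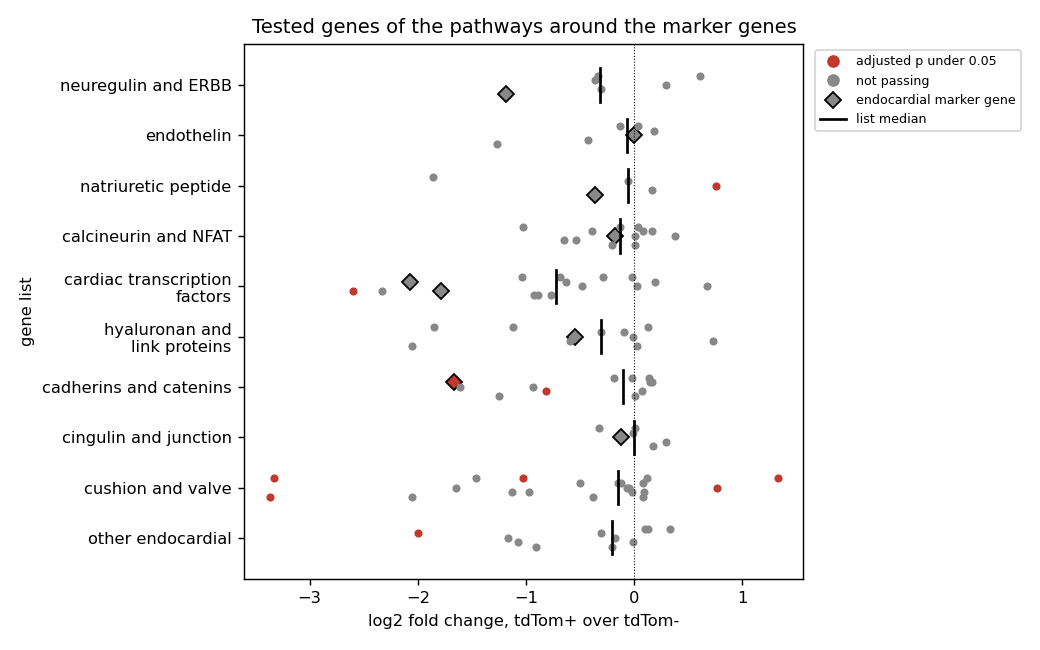
Log2 fold change of tdTom+ over tdTom- for each tested gene of the lists around the markers, 1 row per list, with diamonds for the 9 markers, red for genes that passed and a black bar at the list median. The cardiac transcription factor list has the lowest median, at -0.73, and the cushion and valve list has calls on both sides of 0.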

How the data were processed

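The deposited table holds count values from the authors, whole reads per gene symbol and library without scaling, and the deposited log2 values and p-value columns of the authors' own comparison, which runs tdTom- over tdTom+. Per the submitters' processing notes reads were handled with featureCounts (1.4.6), STAR (2.5.2b), Trimmomatic (0.36.4), DESeq2 and Picard (2.7.1.1), and the build was mm10; their roles are not given in the sources used here. Per the labels' protocols, amplified cDNA (SMART-seq V4) was made into Nextera XT libraries. No molecular identifiers are named, so reads and not molecules are counted.

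Sample titles gave the groups. The main test was edgeR 4.0.16 under R 4.3.3, with TMM scaling, filterByExpr (minimum count 10) and a robust two-sided quasi-likelihood F-test on group alone. DESeq2 1.42.0, limma-voom (limma 3.58.1), other filters and scaling, a replicate block and left-out libraries were alternatives. An SE is the size of the log2 fold change over the square root of its F, and intervals are at 95%. CPM uses TMM-scaled totals. A floor of 3 counts, for counting error only, was 0.263 to 0.280 CPM in tdTom+ and 0.254 to 0.335 CPM in tdTom- libraries. Libraries of a fraction differed beyond sampling noise (chi-square of 8.18 to 19.7 per gene), and all were kept. The labels do not say that libraries come from separate embryos, so p-values measure the spread between these libraries. Coordinates and exons are GENCODE vM21 on GRCm38. For 3 listed genes the table had an older symbol, and 1 epicardial gene and 3 antisense genes, Hand2os1, Edn1os and Nrg1os, were not matched and are not analysed here.

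Named genes are the 9 markers, every listed gene that passed, up to 3 others of a list with the smallest p, partners, receptors and paralogues of a marker, and the 3 genes most like a called marker. Genes such as Pdgfra, Notch1, Klf2, Gata4, Smoc1, Myh6, Myl7, Nkx2-5, Bmp10 and Xist were named outside this rule after their values were seen. The same holds for Vwf, Lect1 and Ddx3y. The markers, lists and tests were chosen with earlier results of these data known.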

Additional observations from a re-analysis of the deposited data

How the results depend on the processing

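Markers called lower, 1 in the main test, numbered 2 without the low-count filter (Cdh11 and Tbx20), 3 with DESeq2 (with Hand2 too) and 0 to 2 with libraries left out. The labels do not say what a shared number means. Deviations of same-numbered libraries from their group means correlated at 0.105, 0.0892 and 0.161, not all above 0.1, so the numbers were not taken as pairs. Every library correlated best with its own number, and both numbered 3 carried Xist, which is a hint from the data and not from the design. With the replicate block, 2 markers were called lower, Cdh11 (adjusted p = 0.00173) and Hapln1 (-0.57, adjusted p = 0.00906), both by edgeR. Cdh11 lost its call without both libraries numbered 1, 2 or 3 (edgeR adjusted p = 0.187, 0.0739 and 0.0695), where fewer samples were fitted. Of 15 alternatives each, all left the log2 fold change below 0 for the 8 markers other than Edn1. Edn1 turned above 0 with the replicate block (0.013), without tdTom+ replicate 2 (0.08), without tdTom- replicate 2 (0.19) and without both libraries numbered 2 (0.27), and was otherwise as low as -0.14 without tdTom- replicate 3 and -0.22 without both numbered 3. It was never called. Over all genes, 101 higher and 107 lower became 217 and 267 with DESeq2, and 128 and 167 with the block. They became 61 to 97 higher and 65 to 92 lower without 1 tdTom+ library, 37 to 51 and 25 to 32 without 1 tdTom- library, and 18, 38 and 27 higher and 11, 26 and 16 lower without both libraries numbered 1, 2 or 3. Of the list counts, 6 were above 0, and of their 90 values under the alternatives 46 stayed within 1.5 times, 37 were fewer and 7 more. List counts of 0 were above 0 in 14 values. Hand2 and Nrg1 rest on 8 to 155 counts a library, and their spread also holds differences between libraries.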
